A study of Mus musculus with 77 samples.

Results

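The phase II conjugation enzymes described here are the UDP-glucuronosyltransferases (Ugt genes), glutathione S-transferases (Gst genes) and cytosolic sulfotransferases (Sult genes) expressed in mouse liver. Members were chosen by name and by a minimum level, and by no comparison between groups: a symbol of the Ugt1 to Ugt3, Gst or Sult1 to Sult5 series, not a pseudogene, with at least 10 coding-sequence counts in at least 12 of the 24 RNA libraries. This gave 36 members of 25266 genes in the files: 13 of 20 Ugt genes, 18 of 21 Gst genes and 5 of 9 Sult genes that match by name. The other 14 matching genes stayed below the minimum. Sult1c2 lay just inside it, with 10 or more counts in 17 libraries, and Sult5a1 just outside it, with 8 libraries. All 36 members passed the filter on low counts that left 10696 genes for testing.

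Phase II enzymes attach a polar group to drugs, hormones, bilirubin and bile acids so that these can leave the hepatocyte in bile or urine. Ugt enzymes sit in the endoplasmic reticulum and transfer glucuronic acid from UDP-glucuronate, Gst enzymes join glutathione to electrophiles, and Sult enzymes transfer sulfate from PAPS. In rodent liver the detoxification programme is known to follow the daily cycle, in part through the circadian PAR bZIP transcription factors DBP, TEF and HLF, which bind D-box elements.

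The study compared livers that lack either iron regulatory protein, the RNA-binding proteins that sense cellular iron, with livers of wild-type controls at 2 timepoints, ZT5 and ZT12, 5 and 12 h after lights-on. All mice were healthy males of 12 to 24 weeks on a C57BL/6J background, kept under 12 h of light. There were 2 lines, each with its own control: whole-body Aco1-/- (IRP1-deficient, allele Aco1tm1.1Mwh) with Aco1+/+, and whole-body Ireb2-/- (IRP2-deficient, allele Ireb2tm1.2Mwh) with Ireb2+/+. Each of the 8 groups held 3 mice, and each of the 24 livers gave an RNA-seq library and a ribosome profiling library of ribosome-protected footprints (RPF). Levels are CPM, coding-sequence counts scaled by upper-quartile factors to a common library size, and translation efficiency (TE) is RPF over RNA of the same liver on the log2 scale. Because counts were not divided by coding length, levels are compared between mice for 1 gene and not between genes.

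The members lie mostly in gene clusters, and the windows upstream of most Ugt genes are richer in A and T than those of the Gst genes. The 7 Gstm members lie within 149.3 kb of chromosome 3 (chr3:107895854-108045179, GRCm38.p6), the 6 Ugt2b members within 534.4 kb of chromosome 5 (chr5:86889770-87424203), with Ugt2a3, Sult1b1 and Sult1d1 on the same chromosome, and the 4 Ugt1a members on chromosome 1 (chr1:88070779-88220002). In the RefSeq table, 32 of 36 members have a promoter sequence, those without being Gsta4, Gstt2, Ugt1a6b and Ugt3a2. The 250 bases before the start given there had a median GC content of 55.8% in 16 Gst genes (42.0% to 63.2%). It was 33.6% in 11 Ugt genes (30.4% to 44.8%) and 39.2% in 5 Sult genes, beside 52.0% in all 27025 genes of that table. That start is not always the end of the annotated gene. The windows of Gstm4, Gstt1 and Sult1a1 lie inside the gene's span. Those of Gsta2, Gsta3, Gstm6, Gstm7, Gstp3, Gstz1, Sult2a8 and Ugt3a1 overlap it in part. The windows of the Ugt2b and Gstm genes shown here belong to members called in at least 1 genotype as higher (Ugt2b1, Ugt2b38) or lower (Gstm4, Gstm7) at ZT12. The D-box TTATGTAA was found in 0.862% of all windows on either strand, and among the members in 1, Ugt2b1, where its reverse complement TTACATAA, in capitals, lies 59 to 52 bases before the start. The sequences are from RefSeq (GRCm38.p6), read 5′ to 3′ on the gene's own minus strand, at chr5:86926504-86926753 for Ugt2b1, chr5:87424204-87424453 for Ugt2b38, chr3:108044860-108045109 for Gstm4 and chr3:107931818-107932067 for Gstm7.
Ugt2b1: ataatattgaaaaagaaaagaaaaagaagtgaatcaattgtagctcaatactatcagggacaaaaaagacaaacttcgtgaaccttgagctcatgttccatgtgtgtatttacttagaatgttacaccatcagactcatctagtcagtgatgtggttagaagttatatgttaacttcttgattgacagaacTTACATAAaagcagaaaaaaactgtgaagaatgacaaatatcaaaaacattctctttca
Ugt2b38: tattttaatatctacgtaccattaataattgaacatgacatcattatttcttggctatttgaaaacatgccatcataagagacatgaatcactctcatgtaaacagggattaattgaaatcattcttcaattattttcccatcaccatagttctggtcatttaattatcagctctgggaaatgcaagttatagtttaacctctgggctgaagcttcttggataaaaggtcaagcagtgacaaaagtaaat
Gstm4: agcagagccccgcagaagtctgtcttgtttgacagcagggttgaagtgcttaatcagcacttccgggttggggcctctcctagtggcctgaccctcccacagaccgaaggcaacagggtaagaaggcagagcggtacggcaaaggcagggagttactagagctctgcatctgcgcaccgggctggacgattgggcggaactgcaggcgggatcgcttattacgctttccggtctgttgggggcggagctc
Gstm7: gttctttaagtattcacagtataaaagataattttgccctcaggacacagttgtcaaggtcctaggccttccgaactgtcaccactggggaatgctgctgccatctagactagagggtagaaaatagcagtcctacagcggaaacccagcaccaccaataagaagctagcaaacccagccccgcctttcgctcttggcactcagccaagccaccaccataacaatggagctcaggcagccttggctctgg

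Other motifs searched in the same windows were in few members. The E-box CACGTG, present in 6.04% of all windows, was in 0 of 32 members, and the HNF1 motif, present in 0.0074%, was in 0. The antioxidant response element core TGACNNNGC, present in 10.1%, was in Gsta3, whose enzyme detoxifies aflatoxin epoxide in mice, and in Gstm5. The ROR element core TNGGTCA, present in 9.17%, was in Sult1b1. These are letter matches in 1 window per gene and no measurement of binding.

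RNA libraries held 852293 to 3993492 coding-sequence counts (median 2103622) and RPF libraries 2448915 to 13439600 (median 6784598). The targeted genes checked the labels at the level of footprints: Aco1 had 74.8 to 123.2 RPF CPM in the Aco1-/- mice and 347.1 to 622 in all others, and Ireb2 had 32.5 to 41.2 in the Ireb2-/- mice and 55.8 to 81.4 in all others. Aco1 RNA was 114 to 215 CPM in the Aco1-/- mice and 239 to 358 elsewhere, whereas Ireb2 RNA overlapped between the Ireb2-/- mice (98.9 to 162) and the others (71.5 to 171). Hepatocyte markers summed to 112973 to 176203 RNA CPM, and no lymphocyte marker of 6 was abundant enough to be tested. Ireb2+/+ ZT5 replicate 3 stood apart: the 3 tested genes of 8 on a list of markers of neighbouring organs summed to 3310 RNA CPM and 6777 RPF CPM there, against medians of 64.9 and 93.5 over all livers. Ireb2-/- ZT12 replicate 1 had 138 RNA CPM and 408 RPF CPM of these transcripts, the most in its group. The pancreatic genes Cela1 and Pnlip were highest in these livers within their groups, and calls of members in the Ireb2 line are given with and without both.

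Together the 36 members took 0.841% to 1.18% of coding-sequence counts in RNA (median 0.959%) and 1.17% to 1.49% in RPF (median 1.32%). The Gst genes made up 0.356% of RNA counts and 0.636% of RPF counts (medians of 24 livers). The Ugt genes made up 0.504% and 0.559%, and the Sult genes 0.102% and 0.105%. The 3 Gst members with the most RNA counts were Gsta3, with 799, 1142 and 1446 CPM as the lowest, median and highest of 24 livers, Gstp1, the pi-class enzyme, with 263, 559 and 718, and Gstz1, the maleylacetoacetate isomerase of tyrosine breakdown, with 310.4, 405 and 491. The Ugt members were Ugt2b36 with 632, 876 and 1128, Ugt2b1 with 399, 656 and 1198, and Ugt2b5 with 449, 708 and 956. The 3 Sult members were Sult2a8, a bile acid sulfotransferase of mouse liver, with 434, 636 and 899, the phenol sulfotransferase Sult1a1 with 53.9, 129 and 176, and Sult1d1, which takes catecholamines, with 63.8, 106 and 186. At the other end, Sult1c2 had 0 to 6.58 RNA CPM.

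The Gst messages carried more footprints per RNA count than the Ugt messages in nearly every liver. Mean log2 TE over 24 livers lay above 0 for all 36 members, and for 5906 of 10696 genes tested, on a scale where 0 means the same share of RPF as of RNA. The median over members was 1.10 for Gst, 0.52 for Ugt and 0.45 for Sult genes, 0.79 for all members and 0.11 for all genes tested. The median Gst TE exceeded the median Ugt TE within 23 of 24 livers, by a median of 0.58 and at most 1.02. The exception was Ireb2+/+ ZT5 replicate 3, the liver with pancreatic transcripts, at 0.70 for Gst and 0.87 for Ugt, and in the others the gap was 0.325 or more. Using all count columns in place of the coding column brought these medians to 1.35 for Gst, 1.06 for Ugt, 0.68 for Sult and 0.04 for all genes, with Gst above Ugt in 22 livers.

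Within the Gst family, TE ranged from 1.78 ± 0.30 for Gstm1 (SD, 24 livers) to 0.19 ± 0.66 for Gsta2. Gstp1 followed Gstm1 with 1.72 ± 0.28, and Gstp3, of the same class, had 1.53 ± 0.41. The lowest members of all families were Sult1b1, a sulfotransferase of phenols and thyroid hormones, at 0.04 ± 0.36, Gsta2, and Sult2a8 at 0.23 ± 0.17. These 3 did not differ from one another by more than their spread across livers, nor did Gstm1, Gstp1 and Gstp3. Outside the Gst family, Sult1a1 (1.41) and the bilirubin-conjugating enzyme Ugt1a1 (1.35) had the highest values, whereas the 6 Ugt2b members ran from 0.32 for Ugt2b5 to 0.64 for Ugt2b1. Reads of the Ugt1a genes, which share their last exons, and of the close copies within Gstm, Gstp, Gsta, Ugt2b and Sult2a may be split between copies by the counting, so values for single copies are uncertain.

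**Figure D1:**
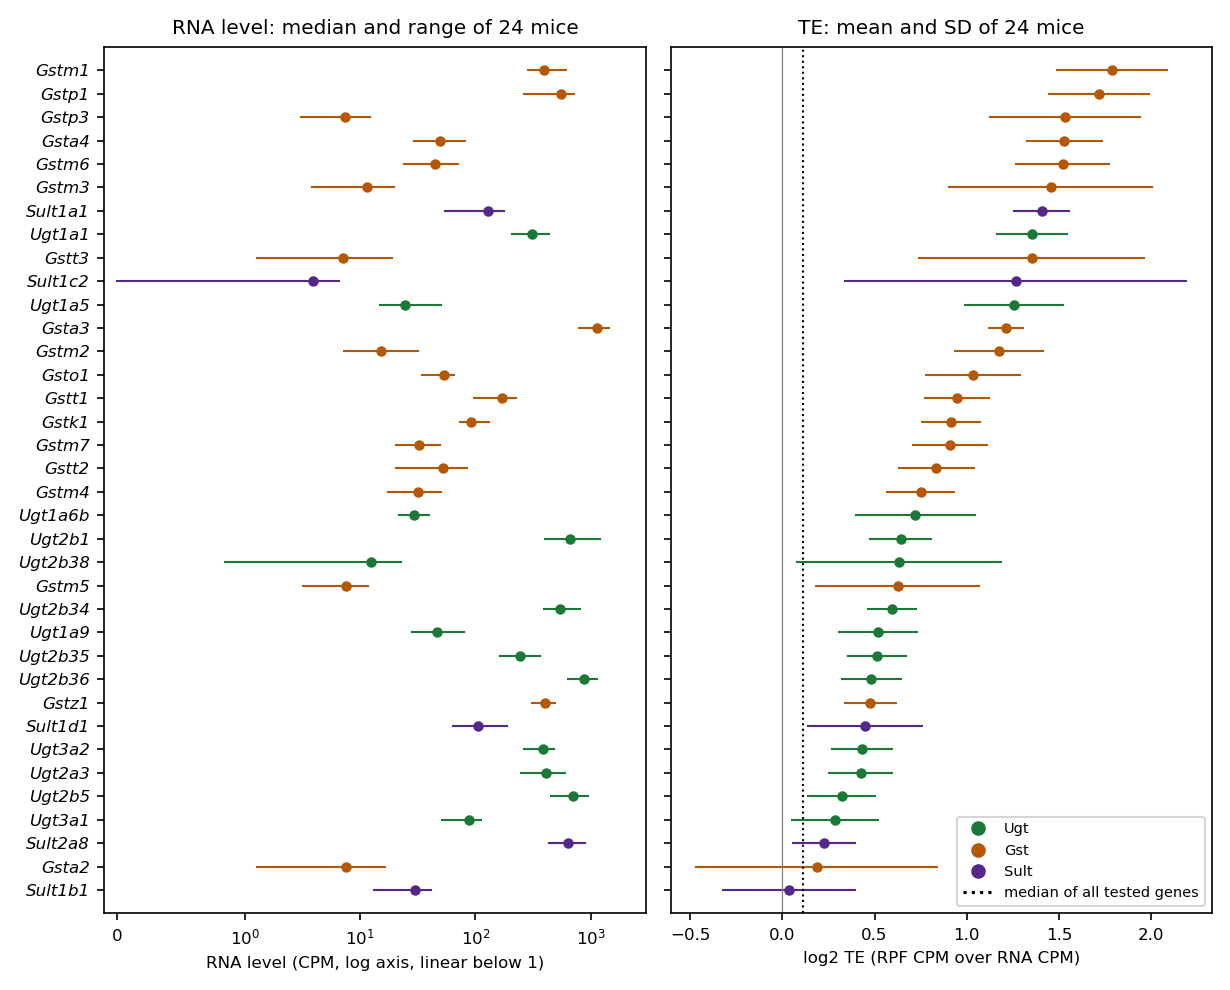
Left, RNA level of each of the 36 members (CPM, log axis that is linear below 1; point, median of 24 livers; line, their range), and right, log2 TE (RPF over RNA; point, mean of 24 livers; bar, SD), coloured by family, with a dotted line at the median of all tested genes (0.11). Gst members reach the highest TE (Gstm1, 1.78), every mean lies above 0, and the Ugt2b members run from 0.32 to 0.64.

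The comparison of ZT12 with ZT5 within each genotype asked which conjugation enzymes change between the middle and the end of the light phase. Over the 4 genotypes it held 21 of the 23 calls made for members in 34 comparisons: Ugt genes were called 7 times, higher at ZT12 each time, and the Gstm and Gstp1 genes 10 times, lower each time. Gstt2 was called 3 times and Sult2a8 once, each higher. In all, 13 of the 36 members were called at least once (7 Gst, 5 Ugt, 1 Sult), where 25% of all tested genes were, and 23 never were. In RNA, 4 members passed in Aco1+/+, all higher at ZT12 (7.05% of all tested genes called, 3.29% as higher), 2 in Aco1-/-, both higher (5.15%, with 2.42% higher), 2 in Ireb2+/+, both lower (2.29%, with 1.2% lower), and 1 in Ireb2-/-, lower (2.77%, with 1.45% lower). In RPF, 1 member passed in Aco1+/+, higher (6.64%, with 3.46% higher), 6 in Aco1-/-, of which 4 were higher and 2 lower (12.1%, with 5.31% higher and 6.78% lower), 3 in Ireb2+/+, all lower (7.53%, with 3.9% lower), and 1 in Ireb2-/-, lower (5.73%, with 3.06% lower). In TE, 1 member passed in Aco1-/-, lower (0.15%, with 0.112% lower). No member passed in TE in Aco1+/+ (0.0187% of all genes called), Ireb2+/+ (0.533%) or Ireb2-/- (0.00935%) by edgeR's quasi-likelihood test or by DESeq2, and 3, 4 and 2 members had an unadjusted p under 0.05 there. With 36 members, these counts are small, and their shares were not tested against the background. The families are described by direction and by value.

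The Gstm and Ugt2b subfamilies had median changes of opposite sign, whereas the whole families were mixed. The median log2 change of the 7 Gstm members in RPF was −0.30 in Aco1+/+, −0.51 in Aco1-/-, −0.62 in Ireb2+/+ and −0.42 in Ireb2-/-, with 7, 6, 6 and 7 members below 0. The median of the 6 Ugt2b members in RPF was 0.18, 0.18, 0.14 and 0.28, with 6, 6, 4 and 6 members above 0. In RNA the Gstm median was −0.22, −0.08, −0.66 and −0.34 and the Ugt2b median 0.27, 0.17, 0.25 and 0.21. Other subfamilies with more than 1 member were less uniform. Ugt1a, Gstt, Gstp and Gsta each had RPF medians of both signs over the 4 genotypes, with Ugt1a at 0.38, 0.52, 0.06 and −0.09. Of all 18 Gst members, 14, 10, 14 and 12 were below 0 in RPF, and of all 13 Ugt members 11, 12, 7 and 8 were above it. Over all tested genes the median lay between −0.06 and −0.02 in every time comparison of RNA and RPF. In RNA, 9 members were higher and 8 lower at ZT12 in all 4 genotypes (47.2% with one sign, beside 35.5% of all tested genes), and in RPF 10 were higher and 9 lower (52.8%, beside 38.5%). Gstm2, Gstm4, Gstm6, Gstm7 and Gstk1 were lower in all 4 genotypes in both RNA and RPF, and Ugt2a3, Ugt2b38, Ugt2b5, Ugt1a9 and Gsto1 higher in both, whether or not they passed the test. In bulk liver, fewer cells of a type and less RNA per cell cannot be told apart. The 9 pericentral hepatocyte markers summed in Aco1+/+ to 7283 to 8221 RNA CPM at ZT5 and 10194 to 11201 at ZT12, without overlap. In Aco1-/- the ranges were 6839 to 9777 and 9569 to 10610, in Ireb2+/+ 10062 to 11427 and 10288 to 12218, and in Ireb2-/- 9009 to 9927 and 7075 to 11626, each with overlap. In RPF they summed to 13078 to 14626 CPM at ZT5 and 19763 to 22585 at ZT12 in Aco1+/+ and to 10967 to 17967 and 18780 to 25369 in Aco1-/-, without overlap in either, and to 17267 to 20132 and 19592 to 22317 in Ireb2+/+ and 16089 to 17966 and 13443 to 20247 in Ireb2-/-, with overlap. Of the 9, in RPF 2 were called higher in each Aco1 genotype, 2 lower in Ireb2+/+ (0 without both livers with pancreatic transcripts) and 0 in Ireb2-/-. The part of these markers in the results was not tested.

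**Figure D2:**
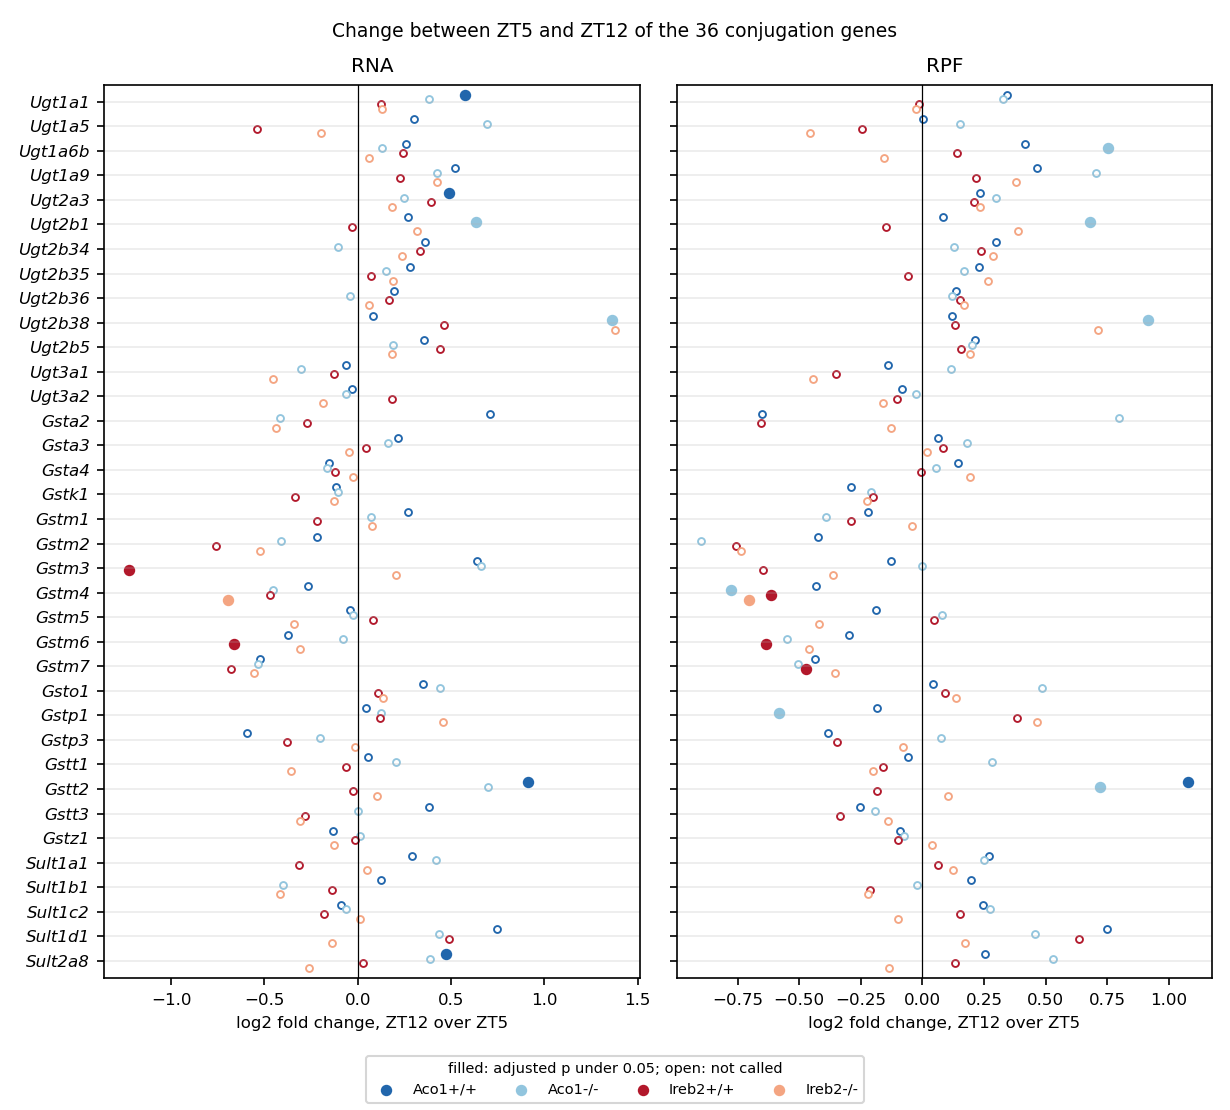
Log2 fold change of ZT12 over ZT5 in RNA (left) and RPF (right) for each of the 36 members, with 1 point per genotype by colour, filled where the adjusted p was under 0.05, and a line at 0. The Gstm points lie mostly below 0, from −0.90 to 0.08 in RPF, and the Ugt2b points mostly above, from −0.15 to 0.91.

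Among the glutathione S-transferases, the mu-class genes Gstm3, Gstm4, Gstm6 and Gstm7 were called as lower at ZT12 in at least 1 genotype each. Gstm4 was called in 3 genotypes in RPF. Its level was 88.5, 67.6 and 52.8 RPF CPM at ZT5 and 47.5, 30.2 and 44.6 at ZT12 in Aco1-/- (log2 fold change −0.78 ± 0.23 SE, adjusted p = 0.0365). It was 67.3, 53.5 and 53.6 and then 36.3, 48.1 and 30.3 in Ireb2+/+ (−0.62 ± 0.15, adjusted p = 0.0153). In Ireb2-/- it was 71.3, 74.4 and 69.6 and then 41.9, 39.9 and 50.2 (−0.70 ± 0.15, adjusted p = 0.0083). All ZT12 livers of these 3 genotypes lay below all ZT5 livers of the same genotype. In Aco1+/+, with 77.3, 73.1 and 40.9 and then 50.6, 49.9 and 43.8, the timepoints overlapped and the change was −0.43 ± 0.23 (adjusted p = 0.3). Gstm4 RNA was 38.3, 50.4 and 45.8 CPM and then 28.3, 22.3 and 32.8 in Ireb2-/- (−0.69 ± 0.18, adjusted p = 0.0395).

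The Gstm4 calls depended on single livers. The Aco1-/- call ended without ZT5 replicate 1 (adjusted p = 0.2) or replicate 2 (0.0724) or without ZT12 replicate 2 (0.133) or replicate 3 (0.0507), and with the first sequencing run alone (0.118). The Ireb2+/+ call ended without ZT5 replicate 1 (0.106) or without ZT12 replicate 1 (0.0747) or replicate 3 (0.0861), and held without both livers with pancreatic transcripts (−0.67, adjusted p = 0.0281). The Ireb2-/- RPF call ended without ZT5 replicate 2 (0.0561), ZT12 replicate 1 (0.0526) or both livers with pancreatic transcripts (0.0576). The Ireb2-/- RNA call ended in 8 of 13 alternatives, among them leaving out ZT5 replicate 2 (0.215) or 3 (0.113), ZT12 replicate 1 (0.15) or 2 (0.193), or both livers with pancreatic transcripts (0.0719).

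Gstm6 was called in both RNA and RPF in Ireb2+/+. Its RNA fell from 61.3, 70.6 and 64.6 CPM at ZT5 to 42.2, 41.2 and 39.9 at ZT12 (log2 fold change −0.66 ± 0.14 SE, adjusted p = 0.00712), and its footprints from 178, 175 and 169 to 129.7, 92.4 and 113 (−0.64 ± 0.14, adjusted p = 0.00846). The timepoints did not overlap, and both calls held in 13 of 13 alternatives, including the one without both livers with pancreatic transcripts. In the other genotypes the RPF change was −0.30 ± 0.20 in Aco1+/+, −0.55 ± 0.20 in Aco1-/- and −0.46 ± 0.14 in Ireb2-/-, with adjusted p = 0.424, 0.0816 and 0.065. Gstm7 footprints in Ireb2+/+ fell from 71.5, 67.9 and 61.7 RPF CPM to 50.2, 45.6 and 48.9 (−0.47 ± 0.12, adjusted p = 0.0205), again without overlap. That call ended without ZT5 replicate 1 (0.106) or 2 (0.0614) or without ZT12 replicate 1 (0.0544) or 2 (0.0614), and held without both livers with pancreatic transcripts (−0.53, adjusted p = 0.0305).

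Gstm3 was called in Ireb2+/+, the one genotype in which its RNA change was below 0. In Ireb2+/+ its RNA was 11.6, 18.4 and 19.6 CPM at ZT5 and 7.53, 5.49 and 8.38 at ZT12 (log2 fold change −1.23 ± 0.28 SE, adjusted p = 0.0139). In Aco1+/+ it was 8.35, 9.86 and 3.80 and then 16.9, 11.5 and 9.11 (0.64 ± 0.32, adjusted p = 0.262), in Aco1-/- the change was 0.66 ± 0.32, adjusted p = 0.248 and in Ireb2-/- 0.20 ± 0.25, adjusted p = 0.786. The difference of the RNA time change between Ireb2-/- and Ireb2+/+ was 1.43 ± 0.37, adjusted p = 0.981, and the lines were not tested against each other. In RPF the change was at or below 0 in all 4 genotypes, from −0.65 in Ireb2+/+ to −0.001 in Aco1-/-. The Ireb2+/+ call ended without ZT12 replicate 2 (0.122) and without both livers with pancreatic transcripts (0.0524). Gstm1, Gstm2 and Gstm5 were never called: Gstm2 RPF changes ran from −0.90 in Aco1-/- to −0.42 in Aco1+/+, Gstm1 from −0.39 to −0.04 and Gstm5 from −0.42 to 0.08.

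**Figure D3:**
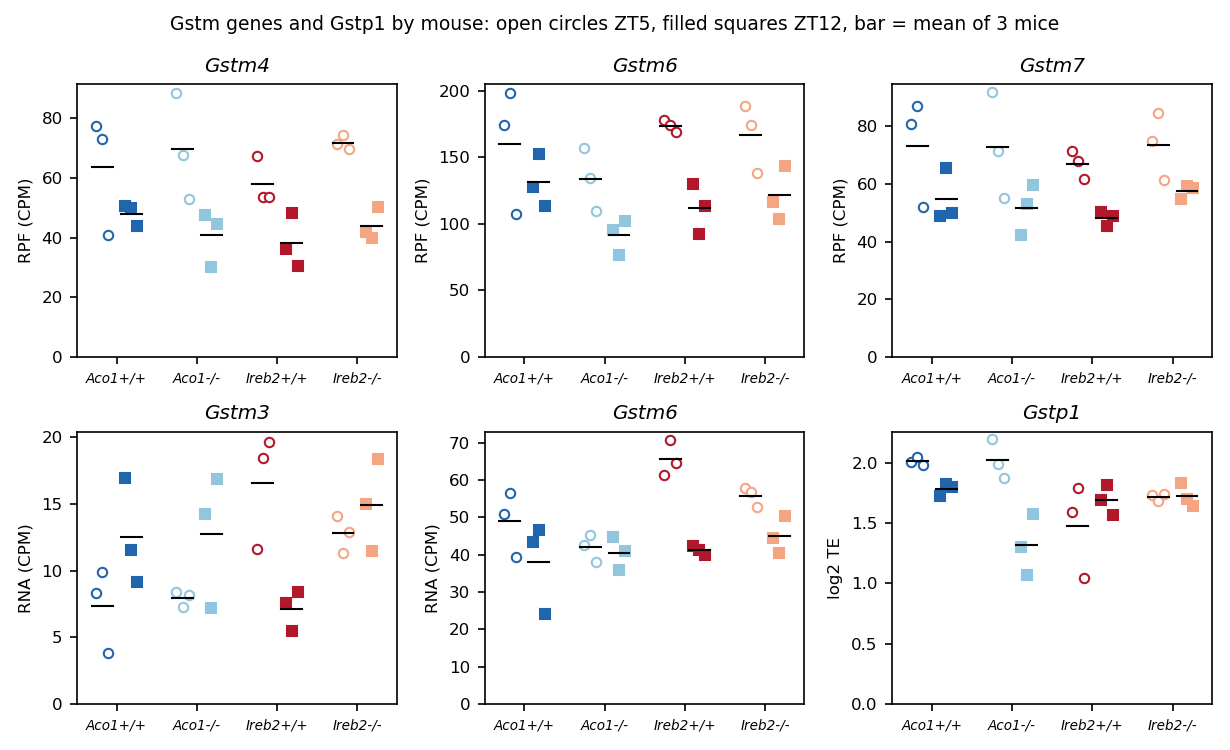
Gstm4, Gstm6 and Gstm7 in RPF (CPM), Gstm3 and Gstm6 in RNA (CPM) and Gstp1 as log2 TE in each of the 24 livers, by genotype (open circles, ZT5; filled squares, ZT12; bar, mean of 3 mice). The Gstm6 RNA points of Ireb2+/+ lie between 61.3 and 70.6 at ZT5 and between 39.9 and 42.2 at ZT12, and the Gstp1 TE of Aco1-/- runs from 1.87 to 2.20 at ZT5 and from 1.07 to 1.58 at ZT12.

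Gstp1, the pi-class enzyme, held the only TE call. In Aco1-/- its log2 TE was 2.20, 1.99 and 1.87 at ZT5 and 1.30, 1.07 and 1.58 at ZT12 (log2 fold change −0.70 ± 0.12 SE, adjusted p = 0.00448), without overlap. Its footprints fell in the same livers from 2359, 1397 and 2345 RPF CPM to 1568, 1211 and 1294 (−0.58 ± 0.18, adjusted p = 0.0368), where the timepoints overlapped. Its RNA changed by 0.13 ± 0.17 (adjusted p = 0.737). In Aco1+/+ log2 TE was 2.01, 2.05 and 1.98 and then 1.72, 1.82 and 1.80 (−0.23 ± 0.12, adjusted p = 0.716). In the Ireb2 line the TE change was 0.23 ± 0.14 in the control and 0.01 ± 0.14 in the knockout. The TE call ended without Aco1-/- ZT5 replicate 1 (0.119) or ZT12 replicate 2 (0.0533). The RPF call ended when all count columns were used (0.269) or without ZT5 replicate 1 (0.172) or 3 (0.0979) or ZT12 replicate 2 (0.138) or 3 (0.0881).

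Gstt2, a theta-class enzyme, was the one Gst member called as higher at ZT12, in both genotypes of the Aco1 line. In Aco1+/+ its RNA rose from 32.5, 46.1 and 20.3 CPM to 65.2, 74.7 and 53.7 (log2 fold change 0.91 ± 0.22 SE, adjusted p = 0.0114), and its footprints from 81.2, 68.1 and 36.4 to 150.1, 145.3 and 105 (1.08 ± 0.23, adjusted p = 0.00804). In Aco1-/- footprints rose from 85.7, 85.9 and 60.9 to 125.4, 122.2 and 137 (0.72 ± 0.22, adjusted p = 0.0451). None of these groups overlapped between timepoints. In the Ireb2 line the RPF change was −0.18 ± 0.20 in Ireb2+/+ and 0.10 ± 0.20 in Ireb2-/-, and the timepoints overlapped. The difference between the lines was not tested. The Aco1+/+ RPF call held in 12 of 12 alternatives. The RNA call ended without ZT5 replicate 1 (0.0679) or ZT12 replicate 1 (0.05003) or 2 (0.0748), and the Aco1-/- call on leaving out any 1 of its 6 livers (0.0724 to 0.115) and with the first sequencing run alone (0.1065). Gsta3, Gsta4, Gstk1, Gsto1, Gstt1 and Gstz1 were called in no comparison, and their time changes in RPF lay between −0.29 and 0.48. Those of Gstp3 and Gstt3, also never called, lay between −0.38 and 0.07.

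Among the glucuronosyltransferases, Ugt2b1 and Ugt2b38 rose between ZT5 and ZT12 in Aco1-/-. Ugt2b enzymes conjugate steroids, bile acids and drugs. Ugt2b1 RNA was 644, 649 and 600.5 CPM at ZT5 and 1198, 1004 and 739 at ZT12 (log2 fold change 0.63 ± 0.15 SE, adjusted p = 0.0077), and its footprints were 877, 1012 and 862 and then 1636, 1577 and 1190.1 (0.68 ± 0.15, adjusted p = 0.00725). The timepoints did not overlap. The RPF call held in 12 of 12 alternatives and the RNA call ended without ZT12 replicate 1 (0.0804). In Aco1+/+ the RPF change was 0.08 ± 0.15, in Ireb2+/+ −0.15 ± 0.12 and in Ireb2-/- 0.39 ± 0.12, and none passed. The test of whether the time effect differed between Aco1-/- and Aco1+/+ did not pass for Ugt2b1 (0.59 ± 0.21, adjusted p = 0.881 in RPF).

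Ugt2b38 was a low-abundance member with the widest fold change of the Ugt genes. Its RNA in Aco1-/- was 5.88, 6.26 and 6.77 CPM at ZT5 and 22.4, 13.8 and 15.8 at ZT12 (log2 fold change 1.36 ± 0.28 SE, adjusted p = 0.00147), and its footprints were 11.2, 10.6 and 12.8 and then 27.9, 19.9 and 16.8 (0.91 ± 0.23, adjusted p = 0.0163). In Aco1+/+ RNA was 13.2, 13.1 and 20.3 and then 15.3, 13.03 and 19.8, and the timepoints overlapped. The RNA change in Ireb2-/- was as wide as in Aco1-/-, with a larger error (1.38 ± 0.87, adjusted p = 0.529), from 1.34, 0.840 and 6.58 to 3.33, 12.5 and 11.1 CPM with overlap, and its RPF change there was 0.71 ± 0.51, adjusted p = 0.496. In Ireb2+/+ the RNA change was 0.46 ± 0.69. Only 26.4% of the RNA counts of Ugt2b38 lay in the coding column and 64.1% in the second column of the files. With all count columns its RNA change in Aco1-/- was 0.03 (adjusted p = 0.956). Its RPF call ended without ZT5 replicate 1 (0.0789) or 2 (0.0589), without ZT12 replicate 1 (0.096) and with the first sequencing run alone (0.103).

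Of the Ugt1 members, Ugt1a6b, which acts on small phenols, and Ugt1a1 were each called once. Ugt1a6b footprints in Aco1-/- rose from 42.4, 44.0 and 47.0 RPF CPM to 93.5, 73.3 and 57.4 (log2 fold change 0.76 ± 0.18 SE, adjusted p = 0.00996), and the call ended without ZT5 replicate 1 (0.0522) or ZT12 replicate 1 (0.0621). Ugt1a1 RNA in Aco1+/+ rose from 275, 246 and 209 CPM to 431, 344 and 314 (0.58 ± 0.15, adjusted p = 0.0135), and that call ended without ZT5 replicate 2 (0.0649) or 3 (0.0708), without ZT12 replicate 1 (0.142) with all count columns (0.0501) and with the first sequencing run alone (0.0843). Ugt2a3 RNA in Aco1+/+ rose from 388, 408 and 365 CPM to 448, 586 and 599 (0.49 ± 0.15, adjusted p = 0.0315). All 3 were without overlap between timepoints. The Ugt2a3 call ended on leaving out any liver of the group but ZT12 replicate 1 (0.085 to 0.161), and with the first sequencing run alone (0.0586). Ugt1a5, Ugt1a9, Ugt2b5, Ugt2b34, Ugt2b35, Ugt2b36, Ugt3a1 and Ugt3a2 were never called, and their RPF changes lay between −0.46 and 0.70. Ugt3a1 and Ugt3a2, which use other UDP-sugars, had RPF changes at or below 0.12 in all 4 genotypes.

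**Figure D4:**
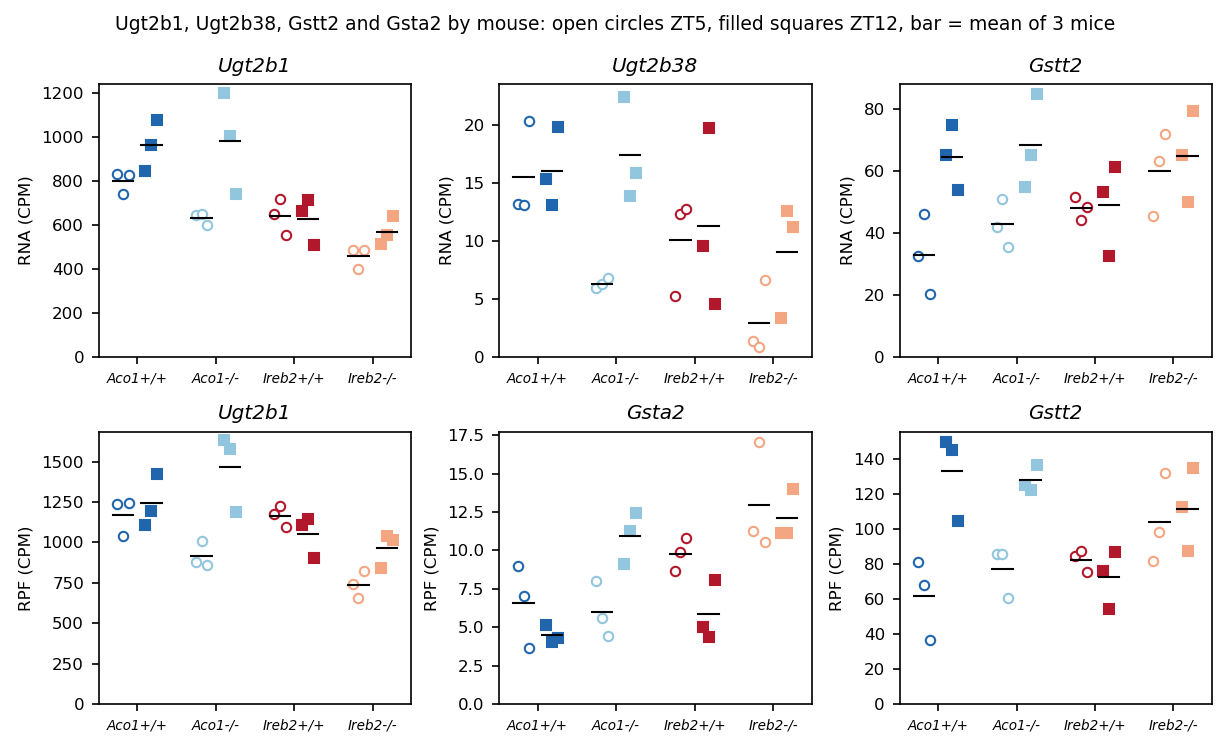
Levels (CPM) of Ugt2b1 and Gstt2 in RNA and RPF, Ugt2b38 in RNA and Gsta2 in RPF in each of the 24 livers, by genotype (open circles, ZT5; filled squares, ZT12; bar, mean of 3 mice). Ugt2b1 in Aco1-/- livers runs from 600.5 to 649 RNA CPM at ZT5 and from 739 to 1198 at ZT12, and the ZT5 livers of Ireb2-/- hold its lowest values, 399 to 487.

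Among the sulfotransferases, Sult2a8 alone was called. Its RNA in Aco1+/+ rose from 615, 649.7 and 546 CPM at ZT5 to 824, 856 and 834 at ZT12 (log2 fold change 0.47 ± 0.15 SE, adjusted p = 0.0458), without overlap. In Aco1-/- the RNA change was 0.39 ± 0.15, in Ireb2+/+ 0.03 ± 0.13 and in Ireb2-/- −0.26 ± 0.13. The call lay close to the threshold and ended on leaving out any 1 of the 6 livers (0.0907 to 0.147), with all count columns (0.105) and with the first sequencing run alone (0.0586). Sult1d1 had a larger change that did not pass: its RPF level in Aco1+/+ was 92.3, 129 and 88.7 CPM and then 148.9, 201 and 174 (0.75 ± 0.38, adjusted p = 0.302), with timepoints that did not overlap, and in the other genotypes the change was 0.46, 0.63 and 0.17 (Aco1-/-, Ireb2+/+, Ireb2-/-). Sult1a1 RPF changes ran from 0.06 to 0.27, Sult1b1 from −0.22 to 0.20 and Sult1c2 from −0.10 to 0.28.

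The comparison of knockout with control livers asked whether loss of either iron regulatory protein changed the conjugation enzymes, and 2 member calls were made in its 12 comparisons. Gsta2, an alpha-class enzyme, passed in RPF at ZT12 in the Aco1 line (1 member, with 0.299% of all tested genes called). Its footprints were 5.17, 4.06 and 4.32 RPF CPM in Aco1+/+ and 9.14, 11.3 and 12.5 in Aco1-/- (log2 fold change 1.27 ± 0.27 SE, adjusted p = 0.0499), without overlap, from 30 to 40 counts a library in the controls and 65 to 70 in the knockouts. At ZT5 it had 9.01, 7.05 and 3.64 RPF CPM in Aco1+/+ and 8.01, 5.61 and 4.45 in Aco1-/-, and the groups overlapped. The call ended on leaving out any 1 of the 6 livers (0.0555 to 0.2), with all count columns (0.136) and with the first sequencing run alone (0.148). Ugt2b1 passed in RPF at ZT5 in the Ireb2 line (1 member, 0.0654%), with 1174, 1225 and 1097 RPF CPM in Ireb2+/+ and 740.3, 654 and 820.2 in Ireb2-/- (−0.66 ± 0.12, adjusted p = 0.0382), again without overlap. Its RNA there was 651, 717 and 555 and 484, 399 and 487 (−0.49 ± 0.14, adjusted p = 0.826). The Ugt2b1 call ended without Ireb2+/+ replicate 1 (0.222), 2 (0.231) or 3 (0.0964), without Ireb2-/- replicate 1 (0.302) or 2 (0.442), without both livers with pancreatic transcripts (0.0938) and with the first sequencing run alone (0.0963).

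No member passed in the other 10 knockout comparisons. The share of all tested genes called in the Aco1 line was 0% in RNA at ZT5, 0.00935% in RNA at ZT12, 0.00935% in RPF at ZT5, 0.00935% in TE at ZT5 and 0.0935% in TE at ZT12, and 4, 2, 3, 1 and 9 members had an unadjusted p under 0.05. In the Ireb2 line it was 0.00935% in RNA at ZT5, 0.0187% in RNA at ZT12, 0.028% in RPF at ZT12, 0.00935% in TE at ZT5 and 0% in TE at ZT12, with 3, 6, 9, 3 and 3 members. DESeq2 called 1 member in these comparisons, Gstp1 TE at ZT12 in the Aco1 line, where edgeR's quasi-likelihood test gave −0.47 ± 0.12, adjusted p = 0.185. The next smallest adjusted p values were those of Gsta2 TE at ZT12 in the Aco1 line (1.55 ± 0.42, adjusted p = 0.204) and Ugt2b38 RNA at ZT5 in the Aco1 line (−1.24 ± 0.28, adjusted p = 0.28), with 13.2, 13.1 and 20.3 CPM in the control and 5.88, 6.26 and 6.77 in the knockout. Gsta2 RPF at ZT12 in the Ireb2 line changed by 0.97 ± 0.25, adjusted p = 0.32. The knockout and time comparisons of a line use the same 12 livers and are not separate evidence.

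Whether a knockout effect differed between timepoints was tested as an interaction, and no member passed in any of the 6 tests. The share of all genes called was 0% in RNA and RPF and 0.028% in TE in the Aco1 line, with 3, 3 and 3 members under an unadjusted p of 0.05, and 0% in RNA, RPF and TE in the Ireb2 line, with 2, 1 and 4 members; DESeq2 called 0 members as well. The member with the smallest adjusted p was Gsta2 in the Aco1 line, whose TE difference of 2.60 ± 0.62 had an adjusted p of 0.213.

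Gstm6 and Gstt3 are the members on an earlier list, used in the study, of transcripts predicted to hold a structure like an iron-responsive element, the RNA hairpin to which the iron regulatory proteins bind. Gstm6 log2 TE was 1.55, 1.70 and 2.23 in Aco1+/+ at ZT12 and 1.09, 1.10 and 1.32 in Aco1-/- (−0.63 ± 0.19, adjusted p = 0.313), and the groups did not overlap. At ZT5 its TE change was −0.06 ± 0.18 in the Aco1 line and 0.15 ± 0.14 in the Ireb2 line, and at ZT12 in the Ireb2 line 0.02 ± 0.16. Gstt3 was a low-count gene, with 1.27 to 18.8 RNA CPM over the 24 livers. Its TE change was −0.65 ± 0.40 at ZT5 and −0.29 ± 0.37 at ZT12 in the Aco1 line and −0.18 ± 0.25 and 0.18 ± 0.30 in the Ireb2 line. None of these passed, the smallest adjusted p being 0.313, for Gstm6 at ZT12 in the Aco1 line.

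The wild-type controls of the 2 lines were compared to give the spread between cohorts. No member passed in RNA at ZT5 (0.187% of all genes called), RNA at ZT12 (0%), RPF at ZT5 (3.04%) or RPF at ZT12 (0.028%), and 11, 9, 3 and 4 members had an unadjusted p under 0.05. DESeq2 called 1, Ugt2b1 RNA at ZT12, which was 845, 963 and 1076 CPM in Aco1+/+ and 661, 714 and 506 in Ireb2+/+ without overlap (−0.61 ± 0.15, adjusted p = 0.227 by edgeR's quasi-likelihood test). That RNA difference between controls is of the size of the Ugt2b1 changes above, but it is at ZT12, and the knockout call was in RPF at ZT5. In RPF the 6 Ugt2b members differed between the controls by −0.48 to 0.005 at ZT5 and by −0.45 to −0.002 at ZT12. Gstt2 footprints at ZT12 were 150.1, 145.3 and 105 RPF CPM in Aco1+/+ and 76.4, 54.3 and 86.8 in Ireb2+/+ (−0.87 ± 0.24, adjusted p = 0.523). Gstt3 RNA at ZT5 differed by 1.63 ± 0.41, adjusted p = 0.104. Line and cohort cannot be told apart in these comparisons.

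Genes that feed and empty the conjugation pathway were counted in the same time comparisons. Of 14 genes that make or carry the cofactors, 1 was higher and 2 were lower at ZT12 in RNA in Aco1+/+, and 0 higher with 2, 2 and 1 lower in Aco1-/-, Ireb2+/+ and Ireb2-/-. In RPF, 1, 0, 0 and 1 were higher and 4, 4, 2 and 2 lower in the 4 genotypes. Cbs, the first enzyme from homocysteine towards cysteine, fell in Aco1+/+ (log2 fold change −1.15 ± 0.14 SE, adjusted p = 5.12e-07), Aco1-/- (−1.20) and Ireb2+/+ (−0.89). Gclc, the catalytic subunit of the rate-limiting enzyme of glutathione synthesis, fell in Aco1+/+ (−0.68 ± 0.15, adjusted p = 0.0034) and Aco1-/- (−0.999 ± 0.15, adjusted p = 3.56e-05), while Ugp2, which makes UDP-glucose, rose in Aco1+/+ (0.70 ± 0.14, adjusted p = 0.00127). Of 8 exporters of conjugates and drugs, 3 were higher in RNA in Aco1+/+ and 0 in the other genotypes: Abcb1a (1.67 ± 0.46), Abcc3 (0.55 ± 0.16) and Abcg2 (0.47 ± 0.14). In RPF, 2 were higher in each genotype of the Aco1 line and 0 in the Ireb2 line: Abcb1a in Aco1+/+ (1.71 ± 0.38, adjusted p = 0.0103) and Aco1-/- (1.76 ± 0.35, adjusted p = 0.00356), Abcc3 in Aco1+/+ (0.64 ± 0.17, adjusted p = 0.029) and Abcg2 in Aco1-/- (0.58 ± 0.15, adjusted p = 0.0176). Without both livers with pancreatic transcripts, 1 exporter was higher in RPF in Ireb2+/+ and 1 in Ireb2-/-. Whether the lines differed was not tested for these genes. Of 6 uptake carriers, 2 were higher and 1 lower in RNA in Aco1+/+ and 0 in the others. In RPF, 1 was higher in Aco1+/+ and 1 lower in each genotype: the anion transporter gene Slc22a7 in Aco1+/+ (−0.84), Aco1-/- (−0.70) and Ireb2-/- (−1.07), and Slco2b1 in Ireb2+/+ (−0.40). Both Ireb2-line calls still passed without both livers with pancreatic transcripts. Among conjugation enzymes outside the 3 families, the methyltransferase gene Inmt rose in RNA in Aco1+/+ (0.88) and Ireb2+/+ (0.57). Without both livers with pancreatic transcripts, the Ireb2+/+ change of Cbs was −0.79 (adjusted p = 0.00148) and that of Inmt 0.59, which no longer passed (0.102).

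On the list of xenobiotic regulators and their partners, Por, which is not a regulator but the reductase that supplies electrons to the cytochromes P450, rose in RNA by 2.29 ± 0.19 in Aco1+/+, 1.86 ± 0.18 in Aco1-/-, 1.45 ± 0.15 in Ireb2+/+ and 1.35 ± 0.15 in Ireb2-/-, and was called in each (the largest adjusted p was 3e-06). Nr1i2, the xenobiotic receptor PXR, rose in Aco1+/+ (0.55 ± 0.16, adjusted p = 0.0317) and Ireb2+/+ (0.91 ± 0.17, adjusted p = 0.00289). Of the 10 genes on the list, Por included, 2, 2, 2 and 1 were higher in RNA in the 4 genotypes and 0 lower, and in RPF 4, 3, 2 and 1 were higher and 0, 0, 1 and 0 lower. Of 12 clock and D-box genes, 4, 5, 2 and 4 were higher in RNA and 1 in each genotype lower, and in RPF 5, 6, 5 and 5 were higher and 2, 2, 1 and 1 lower. In RNA, Per2 rose in Aco1+/+ (2.79 ± 0.44) and Aco1-/- (2.77 ± 0.41), and Arntl fell there (−2.20 ± 0.46 and −2.63 ± 0.50). Nr1d1 fell in RNA in Ireb2+/+ (−1.92 ± 0.23) and Ireb2-/- (−2.44 ± 0.24). Tef, a PAR bZIP factor, rose in RNA in Aco1+/+ (1.27 ± 0.26, adjusted p = 0.00233) and Aco1-/- (1.33 ± 0.25, adjusted p = 0.00117). It also rose in RPF in Ireb2+/+ (1.15 ± 0.21, adjusted p = 0.00405). Of 8 tested targets of the stress factor NRF2, 0 were higher in either assay, and 2, 1, 0 and 0 were lower in RNA and 2, 3, 0 and 0 in RPF, with Osgin1 at −1.48 ± 0.22, adjusted p = 0.000364 in Aco1+/+. Among 6 tested deconjugating enzymes the carboxylesterase gene Ces1d rose in RNA in all 4 genotypes, by 0.97, 0.88, 1.02 and 0.65. Without both livers with pancreatic transcripts, the Ireb2-line RNA calls of Por, Nr1i2 and Ces1d still passed. Por was then at 1.498 and 1.31, Nr1i2 at 0.77 in Ireb2+/+ and Ces1d at 0.91 and 0.70. The regulator list then held 3 higher genes in each Ireb2 genotype, with Nr1i2 passing in Ireb2-/- too (0.67, adjusted p = 0.0205), and the clock and D-box list 4 in each, in RNA. In RPF the regulators then held 3 and 1 higher and 0 lower in Ireb2+/+ and Ireb2-/-, the clock and D-box genes 5 and 3 higher with 1 and 0 lower, and the cofactor genes 0 and 1 higher with 2 and 0 lower.

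Levels of several members are known to depend on sex and on position in the liver lobule, so markers of both are given beside them. Of 9 female-biased liver genes 2 were tested, and they summed to at most 10.3 RNA CPM, whereas 10 male-biased genes summed to 3021 to 11494. At ZT5, where Ugt2b1 was called lower in Ireb2-/-, the male-biased genes summed to 6058 to 6570 RNA CPM in Ireb2+/+ and 3021 to 6077 in Ireb2-/-, and to 7797 to 8564 and 3645 to 8839 RPF CPM, with overlap in both. The tested female-biased genes summed there to 0.276 to 1.15 and 1.37 to 7.396 RNA CPM, without overlap, and to 0.651 to 0.977 and 0.610 to 11.8 RPF CPM, with overlap. In Aco1-/-, where Ugt2b1 and Ugt2b38 rose, the male-biased genes summed to 7393 to 11478 RPF CPM at ZT5 and 6750 to 16955 at ZT12, and in Aco1+/+ to 11717 to 13884 and 10428 to 14281, so at ZT5 the Aco1 genotypes did not overlap. In RNA they did, with 7345 to 9155 CPM in Aco1+/+ and 5552 to 8060 in Aco1-/- at ZT5. The 9 periportal hepatocyte markers summed in RPF to 10019 to 11058 CPM at ZT5 and 11127 to 14730 at ZT12 in Aco1+/+, to 10320 to 11778 and 12667 to 16253 in Aco1-/- and to 10336 to 10963 and 12581 to 13395 in Ireb2+/+, each without overlap, and to 9561 to 12111 and 10655 to 14294 in Ireb2-/-, with overlap. In RNA they overlapped but for Ireb2+/+, with 5645 to 6414 and 6735 to 7520 CPM. The calls of single periportal markers did not follow the sums. Hal, the histidine-degrading enzyme, fell at ZT12 in all 4 genotypes in RNA (−1.28, −1.05, −1.03 and −0.999) and RPF (−1.05, −0.89, −1.18 and −1.10). The adhesion gene Cdh1 fell in Aco1+/+ (−0.81 in RNA, −0.78 in RPF) and in Aco1-/- RPF (−0.63). Higher calls were made for Pck1 in Aco1+/+ RPF (1.26) and Hsd17b13 in Ireb2-/- RPF (0.38). The part of these genes in the results was not tested. Of 6 bile duct markers 4 were tested. They summed to 25.5 to 36.8 RNA CPM at ZT5 and 11.7 to 12.6 at ZT12 in Aco1+/+, to 24.8 to 39.5 and 6.10 to 27.0 in Aco1-/-, to 16.6 to 28.9 and 12.0 to 25.8 in Ireb2+/+, and to 27.4 to 53.1 and 15.8 to 23.6 in Ireb2-/-. Their ranges at ZT5 and ZT12 did not overlap in Aco1+/+ and Ireb2-/- and overlapped in the other genotypes. In RPF they summed to 67.5 to 82.2 CPM at ZT5 and 24.3 to 29.0 at ZT12 in Aco1+/+, without overlap, to 53.4 to 86.2 and 28.1 to 57.3 in Aco1-/-, to 38.7 to 53.2 and 25.2 to 44.8 in Ireb2+/+, and to 60.6 to 108.6 and 36.8 to 65.9 in Ireb2-/-, with overlap in these 3. Their part in the Gstm results was not tested. Sums of other cell types also moved without overlap between timepoints. In RPF, hepatocyte markers rose from 171236 to 217974 CPM to 223413 to 235841 in Aco1-/-, and rose in Ireb2-/- too. In both assays, stellate markers rose in Aco1-/-, sinusoidal endothelial markers fell in Ireb2-/- and erythroid markers fell in Aco1+/+. In RPF alone, Kupffer and myeloid markers fell in Aco1+/+ and erythroid markers in Ireb2-/-. The part of these sums was not tested.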

How the data were processed

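The authors deposited whole-number read counts per gene for 77 sequencing runs of 24 mouse livers, in several columns without a header. The submitters' processing notes name cutadapt 3.5, Bowtie2 and STAR 2.70f, and the counting tool and strand setting are not given in the sources used here. Runs were summed into 24 RNA and 24 RPF libraries. The third column was taken as the coding sequence, since it held 91.9% to 96.1% of RPF counts and 48.3% to 66.7% of RNA counts.

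Counts were scaled by upper-quartile factors over the 48 libraries, filtered with filterByExpr and compared within a line by edgeR's robust quasi-likelihood test (edgeR 4.0.16, R 4.3.3). P-values were adjusted by Benjamini-Hochberg across all 10696 tested genes, with a threshold of 0.05. TE was tested in 1 model of RPF and RNA with a term for each mouse, and log2 TE per liver used a prior count of 0.5. The standard error is the log2 fold change over the square root of F. The members named with values are those with an adjusted p under 0.05, the 3 with the highest level in each family (by CPM, as coding lengths were not used), the 3 with the highest and lowest TE, and Gstm6 and Gstt3. From each list of other genes, called genes among the 3 with the smallest adjusted p were named. Further members are given by range or direction, or were named after their values were seen. Members and lists were chosen with earlier results of these data known. Alternatives were DESeq2 1.42.0, TMM factors, no filter, the first sequencing run, all count columns, a replicate block and each liver left out. Leaving out both livers with pancreatic transcripts was added after seeing the data. Some results of the list of other conjugation enzymes are not reported here.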

Additional observations from a re-analysis of the deposited data

How the results depend on the processing

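Over the 34 comparisons, 23 member calls were made, against 35 with DESeq2, 28 with TMM factors, 28 without a filter, 20 with all count columns, 15 with the first sequencing run alone and 42 with a replicate block. None of the fold changes of these 23 calls reversed its sign in an alternative, and other fold changes were not checked in this way. Each value was then counted once under each alternative. Outside leaving out single livers, a call was lost in 20 of these cases and a median TE moved in 4. When single livers were left out, the 23 calls held in 74 cases and were lost in 64. Depth limits the low-count members: Sult1c2, Gstt3, Gsta2, Gstp3 and Gstm5 had means under 10 RNA CPM. In the Aco1 line, the number of members called in RPF between knockout and control at ZT12 (1) became 0 with all count columns and 0 with the first run, and in TE at ZT12 (0) it became 1 with DESeq2. For ZT12 against ZT5 in Aco1+/+, the 4 RNA calls became 2 with all count columns and 1 with the first run. In Aco1-/-, the 6 RPF calls became 11 with DESeq2 and 3 with the first run, and the 1 TE call became 2 with all count columns. In the Ireb2 line, the 1 RPF call between knockout and control at ZT5 became 0 with the first run and 0 without both livers with pancreatic transcripts. In Ireb2+/+, the TE count (0) became 1 without those livers. In Ireb2-/-, the 1 RNA call became 0 with DESeq2, all count columns, the block or without those livers, and the 1 RPF call became 4 with DESeq2, 2 with TMM factors and 0 without those livers. Between the control lines at ZT12, the RNA count (0) became 1 with DESeq2. The cause of these changes was not tested. Median log2 TE with all count columns was 1.35 for Gst and 1.06 for Ugt members, and that of all genes was 0.04 there and with TMM factors. Leaving out 1 liver at a time gave 0 to 1 members in Aco1 knockout against control at ZT12 in RPF and 0 to 1 in TE, 1 to 2 in RNA and 1 to 2 in RPF in Aco1+/+ over time, 2 to 4 in RNA, 1 to 8 in RPF and 0 to 2 in TE in Aco1-/-, 0 to 1 in Ireb2 knockout against control at ZT5 in RPF, 1 to 3 in RPF and 0 to 1 in TE in Ireb2+/+, 0 to 1 in RNA and 0 to 6 in RPF in Ireb2-/-, and 0 to 1 in RPF between the control lines at ZT5.

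The labels state no pairing, but most same-numbered control and knockout livers of a line and timepoint have consecutive mouse numbers. Whether such livers were collected or handled together is not given. The correlation of their deviations was −0.09 to 0.13 in RNA (1 of 12 pairs over 0.1) and −0.09 to 0.26 in RPF (5 of 12). The numbers were not used as a pairing in the main tests, and these correlations cannot decide whether there was one. Of the control livers, 5 of 12 in RNA and 7 of 12 in RPF correlated best with the knockout liver of their own number. With the replicate number as a block, the RPF calls became 3 (from 1) in Aco1+/+, 15 (from 6) in Aco1-/-, 6 (from 3) in Ireb2+/+, 4 (from 1) in Ireb2-/- and 1 (from 0) between the control lines at ZT12, and the RNA call of Ireb2-/- became 0.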

Other observations

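The 14 genes that match by name but lay below the minimum level were set aside from the comparisons. Sult5a1, with at most 39 coding counts in an RNA library (median 6.5), had a median of 62 in the RPF libraries. Ugt2b37 had a median of 2.5 RNA and 16 RPF counts, and 15.7% of its RNA counts lay in the coding column and 81.4% in the second column, a split like that of Ugt2b38. Ugt1a6a had 0 coding counts in every library, whereas Ugt1a6b, its neighbour on chromosome 1, had a median of 29.2 RNA CPM. Gstp2, in the cluster of Gstp1 and Gstp3, had a median of 3 RNA and 11.5 RPF counts. Gsta1, the near copy of Gsta2, had at most 3 RNA counts in a library, and the counts of these copies are uncertain where reads are shared.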
